A study of Homo sapiens with 6 samples.

Results

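The 9 genes described here make, sense and inactivate prostaglandins: PLA2G4A, PTGS1, PTGS2, PTGES, PTGES2, PTGER2, PTGER4, HPGD and PTGR1. They were taken by name from a table of counts for 57736 Ensembl genes, and all 9 had a row of their own. The RNA came from PC3, an established human prostate cancer cell line, in 3 libraries of cells given a control siRNA (siCTRL) and 3 of cells given an siRNA against Mic60 (siMic60). Mic60, the product of IMMT, is a structural protein of the inner mitochondrial membrane. The labels also call the groups Mic60 WT and Mic60 KO, although their descriptions name siRNAs, so the siRNA names are used. Neither the siRNA sequences, the time after transfection nor the medium is stated for these samples, and 1 siRNA group against Mic60 is described here. Libraries of the QuantSeq 3′ type, in which a tag from the 3′ end stands for each polyadenylated RNA, held 6644495 to 8779877 counts each. Nothing in the labels says that the 3 libraries of a group came from separate cultures, so p-values measure the spread between libraries, which may be technical.

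IMMT was at 88.7, 91.0 and 90.1 counts per 1000000 (CPM, scaled by the TMM method) in the siCTRL libraries and at 5.81, 7.33 and 8.51 CPM with siMic60. Its log2 fold change of −3.62 (SE 0.15, quasi-likelihood test of edgeR, adjusted p = 4.38e-10) matches the labels in all 6 libraries. The epithelial keratins KRT8 and KRT18 and the adhesion gene EPCAM were present in every library, and KLK3 and KRT5 had no count. Among 15 leukocyte markers, 8 had no count, including CD163, CD3D and CD3E. The 15 together lay at 8.36 to 10.4 CPM in siCTRL and 25.4 to 27.6 CPM in siMic60 libraries. That difference lay in CD68, a lysosomal protein gene that rose 3.54-fold, since the other 14 lay at 2.15 to 2.50 CPM and 0.345 to 3.05 CPM. Of 13 markers of PC3 and prostate epithelium, 10 were tested, 3 rose and 4 fell, where 17.7% of all genes tested rose and 17.8% fell. Of 9 mast cell and platelet markers, 6 had no count and the 2 tested, PF4 and ITGA2B, did not pass. Of 8 fibroblast markers, COL1A1 fell to 57.3 from 308 CPM and PDGFRA also fell (adjusted p = 0.0198 from edgeR, and not past the test without siCTRL replicate 1, siMic60 replicate 1 or siMic60 replicate 3), COL3A1 did not pass, and the 7 other than COL1A1 together lay at 3.49 to 9.92 CPM in siCTRL and 2.29 to 6.10 CPM in siMic60 libraries. The part of CD68 or COL1A1 in any result below was not tested. By a chi-square of counts, siCTRL replicate 1 stood further from the other siCTRL libraries (10.8 and 13.5 per degree of freedom) than these did from each other (3.54). Pairs of siMic60 libraries stood at 10.1 (replicates 1 and 2), 8.1 (1 and 3) and 10.1 (2 and 3).

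Prostaglandins are lipid mediators made from arachidonic acid. Phospholipases free the acid from membranes, the cyclooxygenases PTGS1 and PTGS2 convert it to prostaglandin H2, and terminal synthases such as PTGES turn this into prostaglandin E2. The product leaves the cell, acts on G protein-coupled receptors, and is taken up again and inactivated, chiefly through oxidation by HPGD. In many carcinomas PTGS2 is induced by cytokines and growth factors, whereas HPGD is often described as a brake on prostaglandin E2.

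After Mic60 silencing, the inducible cyclooxygenase PTGS2 rose 3.77-fold, and HPGD, which inactivates prostaglandins, fell to 28.3% of its control level. PTGES and the receptor PTGER2 fell to 48.6% and 51.6%. PLA2G4A, PTGES2, PTGER4 and PTGR1 did not pass the test, and PTGS1 was too low to be tested. Of the 9 genes, 8 reached 10 counts in at least 3 of the 6 libraries. Among these 8, 1 rose and 3 fell at a Benjamini-Hochberg adjusted p under 0.05, where 17.7% of the 14653 genes tested rose and 17.8% fell. The same 4 genes were those whose siMic60 libraries all lay on one side of the siCTRL libraries, 1 above and 3 below, where 23.7% of tested genes lay above and 24.1% below. The 8 genes had a median log2 fold change of −0.16, beside 0.003 over all genes tested. With 8 genes these counts are a description. Since the RNA came from bulk cultures, fewer cells carrying a transcript and less of it per cell cannot be told apart.

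**Figure D1:**
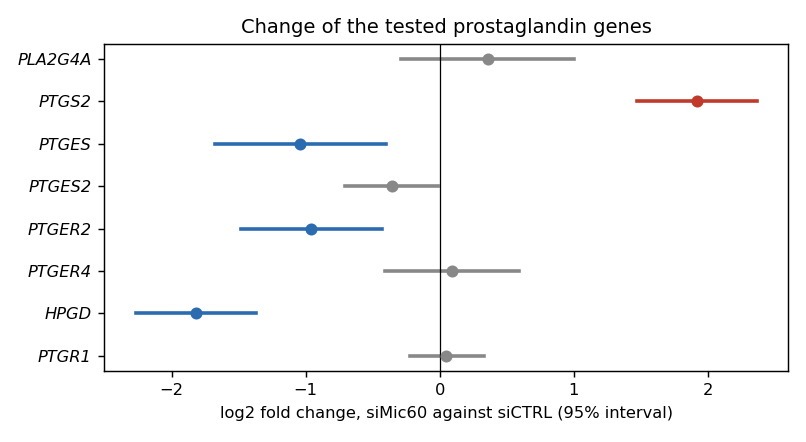
Log2 fold change (siMic60 over siCTRL, n = 3 libraries a group) of the 8 tested prostaglandin genes, with 95% intervals, for a gene that rose (red), genes that fell (blue) and genes that did not pass the test (grey). PTGS2 lies at 1.92 and HPGD at −1.82, and the interval of PTGR1 is the narrowest, from −0.22 to 0.33.

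The substrate of the pathway is released by PLA2G4A (ENSG00000116711), the cytosolic phospholipase that prefers arachidonate. It was at 4.19, 6.11 and 5.65 CPM with siCTRL and at 4.59, 5.86 and 9.78 CPM with siMic60. The groups overlapped, with siMic60 replicate 3 above every other library. The fitted fold was 1.28 (95% interval 0.821 to 2.00, adjusted p = 0.384 from edgeR) and was not told apart from no change at this spread. Without siMic60 replicate 3 the log2 fold change was −0.02 against 0.36 with it.

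Both cyclooxygenases catalyse the committed step, and they differed in level. PTGS1 (ENSG00000095303), the constitutive enzyme, had 2, 1 and 2 counts in the siCTRL libraries and none in the siMic60 libraries, where 0 counts over the group allow up to 0.126 CPM. Counts this low could not be tested with the others, and when the minimum count was dropped and 24792 genes were tested its adjusted p was 0.212. PTGS2 (ENSG00000073756), the inducible enzyme, was at 5.50, 7.11 and 9.46 CPM with siCTRL and at 32.9, 23.2 and 27.5 CPM with siMic60. The groups were apart, and the lowest siMic60 value was over the highest control value by more than the range of the controls. PTGS2 changed by 1.92 on the log2 scale (SE 0.21, adjusted p = 7.06e-06), or 3.77-fold with a 95% interval from 2.76 to 5.16. By size it ranked 201 among the 2588 genes that rose. In the siCTRL libraries there were 23.0, 57.0 and 38.5 PTGS2 counts for each PTGS1 count, a ratio that rests on 5 PTGS1 counts in all. In the siMic60 libraries, where PTGS1 was not detected, PTGS2 counts were at least 71.7, 63.3 and 79.7 times the 3 counts that a value of 0 allows in a library. Counts of 3′ tags do not scale with transcript length, but whether tags are gained equally well from each gene was not measured. Ratios between genes therefore compare counts and not numbers of transcripts. The cyclooxygenase counts were mostly PTGS2 in both groups.

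**Figure D2:**
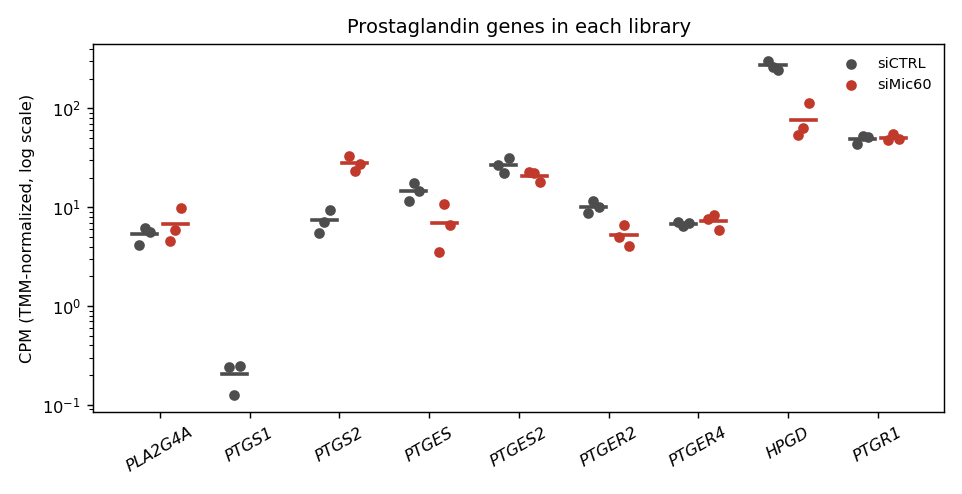
TMM-normalized CPM on a log scale of the 9 prostaglandin genes in 3 siCTRL (grey) and 3 siMic60 (red) libraries, with a line at each group's mean. PTGS1 has no count in siMic60 cells and so no red points, PTGS2 is higher in every siMic60 library, and HPGD, PTGES and PTGER2 are lower in every one.

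Of the terminal synthases, PTGES (ENSG00000148344), the inducible microsomal prostaglandin E synthase that is commonly coupled to PTGS2, went the other way. It was at 11.5, 17.6 and 14.7 CPM with siCTRL and at 3.52, 10.9 and 6.56 CPM with siMic60. The groups did not overlap, but siMic60 replicate 2 came close to siCTRL replicate 1. PTGES had a log2 fold change of −1.04 (SE 0.30, adjusted p = 0.0139). The call did not hold without siCTRL replicate 2 (log2 fold change −0.90, adjusted p = 0.0597 from edgeR) or without siMic60 replicate 3 (−0.98, adjusted p = 0.0584). PTGES2 (ENSG00000148334), a membrane-bound synthase that is not induced with PTGS2, was at 27.0, 22.2 and 31.2 CPM with siCTRL and at 22.6, 22.0 and 18.1 CPM with siMic60. The groups overlapped, and its fold of 0.777 (95% interval 0.609 to 0.991) did not pass after adjustment (adjusted p = 0.0996). The ratio of PTGS2 to PTGES within a library does not depend on scaling. There were 0.479, 0.404 and 0.642 PTGS2 counts for each PTGES count with siCTRL, and 9.35, 2.13 and 4.19 with siMic60. PTGES counts exceeded PTGS2 counts in every siCTRL library and were below them in every siMic60 library.

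The receptors EP2 (PTGER2) and EP4 (PTGER4) both bind prostaglandin E2 and raise cAMP through the stimulatory G protein. PTGER2 (ENSG00000125384) was at 8.73, 11.7 and 9.95 CPM with siCTRL and at 5.05, 6.59 and 4.03 CPM with siMic60. All siMic60 values lay below all siCTRL values (log2 fold change −0.96, SE 0.25, adjusted p = 0.00717). PTGER4 (ENSG00000171522) was at 7.05, 6.49 and 6.88 CPM with siCTRL and at 7.65, 8.30 and 5.87 CPM with siMic60. The siMic60 values lay on both sides of the controls, and the fitted fold of 1.07 had a 95% interval from −0.41 to 0.59 on the log2 scale (adjusted p = 0.796). Whether the changes of the receptors differed from each other was not tested. In GENCODE 29, PTGER4 overlaps TTC33 and PTGR1 overlaps ZNF483, each on the opposite strand, and the strand setting of the counting is not stated, which leaves the reads of each pair hard to tell apart.

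Among the genes of inactivation, HPGD (ENSG00000164120) is the dehydrogenase that begins the breakdown of prostaglandin E2. In control cells HPGD had the highest mean CPM of the 9 genes, above 95.6% of tested genes. It was at 304, 265 and 247 CPM with siCTRL and at 53.7, 63.4 and 113 CPM with siMic60. The groups were far apart, and siMic60 replicate 3 was the least reduced. HPGD had a log2 fold change of −1.82 (SE 0.21, adjusted p = 1.17e-05), which left 28.3% of the control level with a 95% interval from 20.7% to 38.6%. By size the fall ranked 260 among the 2614 genes that fell. PTGR1 (ENSG00000106853), a reductase that acts on the product of HPGD, was at 43.2, 52.2 and 51.7 CPM with siCTRL and at 48.2, 55.4 and 48.7 CPM with siMic60. These ranges overlapped, and PTGR1 did not pass the test (adjusted p = 0.793 from edgeR). The 95% interval of its fold, from 0.856 to 1.25, lay wholly above that of HPGD. Whether the changes of PTGR1 and HPGD differed from each other was not tested.

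Set against PTGS2, there were 55.3, 37.2 and 26.1 HPGD counts for each PTGS2 count in the siCTRL libraries (39.5 ± 14.7, SD, n = 3). In the siMic60 libraries there were 1.63, 2.73 and 4.10 (2.82 ± 1.24, SD, n = 3). HPGD counts exceeded PTGS2 counts in all 6 libraries, by far less after silencing. In siCTRL cells the mean levels ran in the order HPGD, PTGR1, PTGES2, PTGES, PTGER2, PTGS2, PTGER4, PLA2G4A and PTGS1, and the library ranges of neighbours overlapped from PTGES to PTGER4. In siMic60 cells PTGS2 ranked 3 at 27.9 ± 4.85 CPM (SD, n = 3), below PTGR1 at 50.8 ± 4.05 CPM and apart from it. The range of PTGS2 was only just apart from that of PTGES2, with a lowest value of 23.2 CPM against a highest of 22.6 CPM. HPGD at 76.6 ± 31.7 CPM overlapped PTGR1, and PTGER4, PTGES, PLA2G4A and PTGER2 overlapped in turn.

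**Figure D3:**
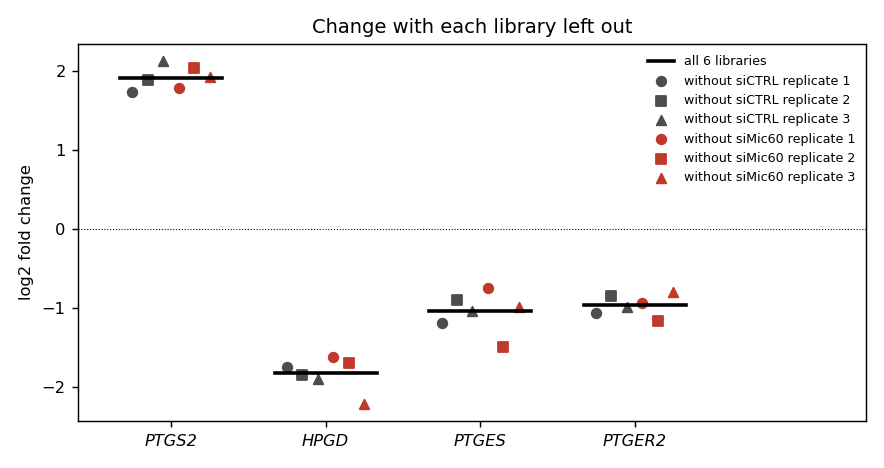
Log2 fold change of the 4 called prostaglandin genes with all 6 libraries (black line) and with each library left out (grey, an siCTRL library, and red, an siMic60 library, with a symbol for each replicate). PTGS2 stays between 1.74 and 2.13, HPGD between −2.21 and −1.62, PTGES between −1.49 and −0.74 and PTGER2 between −1.16 and −0.79.

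The 4 genes that moved are shown by the DNA at their start sites, so that the promoter of the gene that rose can be read beside those of the genes that fell. The windows come from RefSeq (GRCh38.p14), hold 250 bases before and 50 bases from the start site, and are written 5′ to 3′ on the strand of the gene. All 9 genes had a window in the table. Where RefSeq lists several start sites, as for HPGD, the first entry is given. Capitals mark any match to the words searched on both strands: GGGNNNNNCC (NF-kB), TGACGTCA (cAMP response element, CRE) and its shorter form TGACG, TTNNGNAA (C/EBP), the E-box word CACGTG, the word TGANTCA of the factor AP-1, TGANNNNGC (antioxidant response element), GAAANNGAAA (interferon-stimulated response element), TTCNNNGAA (STAT), the TATA box as TATAAA, and the GC box bound by Sp1 as GGGCGG. PTGS2 lies at chr1:186680374-186680673 on the minus strand, HPGD at chr4:174522439-174522738 on the minus strand, PTGES at chr9:129752993-129753292 on the minus strand and PTGER2 at chr14:52314062-52314361 on the plus strand.
PTGS2: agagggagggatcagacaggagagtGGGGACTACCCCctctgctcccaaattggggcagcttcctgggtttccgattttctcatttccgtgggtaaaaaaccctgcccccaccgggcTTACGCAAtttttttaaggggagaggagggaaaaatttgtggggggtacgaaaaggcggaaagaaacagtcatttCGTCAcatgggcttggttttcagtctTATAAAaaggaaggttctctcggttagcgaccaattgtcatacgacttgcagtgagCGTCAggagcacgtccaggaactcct
HPGD: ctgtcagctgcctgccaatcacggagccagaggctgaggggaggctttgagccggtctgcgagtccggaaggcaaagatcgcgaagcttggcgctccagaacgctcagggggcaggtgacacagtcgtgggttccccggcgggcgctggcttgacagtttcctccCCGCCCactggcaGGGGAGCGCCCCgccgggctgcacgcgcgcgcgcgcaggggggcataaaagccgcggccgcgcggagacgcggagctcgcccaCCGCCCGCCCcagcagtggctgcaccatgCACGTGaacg
PTGES: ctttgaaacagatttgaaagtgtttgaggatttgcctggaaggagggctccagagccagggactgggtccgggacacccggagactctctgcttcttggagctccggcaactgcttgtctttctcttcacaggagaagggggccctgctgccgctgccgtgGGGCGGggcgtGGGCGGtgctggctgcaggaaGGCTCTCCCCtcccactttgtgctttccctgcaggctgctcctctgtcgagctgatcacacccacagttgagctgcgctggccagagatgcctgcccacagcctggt
PTGER2: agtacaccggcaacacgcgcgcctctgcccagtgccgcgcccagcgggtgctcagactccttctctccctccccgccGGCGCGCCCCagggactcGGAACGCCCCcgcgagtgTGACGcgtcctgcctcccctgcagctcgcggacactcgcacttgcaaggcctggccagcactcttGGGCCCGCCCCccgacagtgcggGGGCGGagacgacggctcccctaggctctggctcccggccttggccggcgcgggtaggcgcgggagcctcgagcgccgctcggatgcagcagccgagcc

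The window of PTGS2 held a TATA box at −32 to −27, a short CRE word at −58 to −54 and another at 25 to 29, a C/EBP word at −133 to −126 and overlapping NF-kB words between −225 and −214. Among the 35116 RefSeq windows of the same length, 11.5% held the TATA word, 24.6% the short CRE word, 36.8% the C/EBP word and 58.7% the NF-kB word. The TATA word in the sense of the gene and the C/EBP word were found in PTGS2 and in none of the other 8 windows. The windows of HPGD, PTGES and PTGER2 each held NF-kB and GC box words, of which 45.0% of all windows hold the latter, and that of HPGD an E-box at 41 to 46 (7.26% of windows). Overlap was frequent, and in PTGER2 an NF-kB word spans a GC box. None of the 9 windows held the full CRE, AP-1, interferon-stimulated or STAT word, which 1.85%, 7.71%, 3.57% and 7.66% of all windows hold. The base content differed too, with 50.7% G and C in PTGS2 against 61.7% in PTGES, 71.0% in HPGD and 74.7% in PTGER2, and a median of 58.7% over all windows. A match or its absence describes the letters of these windows and says nothing of binding. PTGS2 and PLA2G4A are neighbouring protein-coding genes on chromosome 1 in RefSeq, and the window of PLA2G4A held none of the words.

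**Figure D4:**
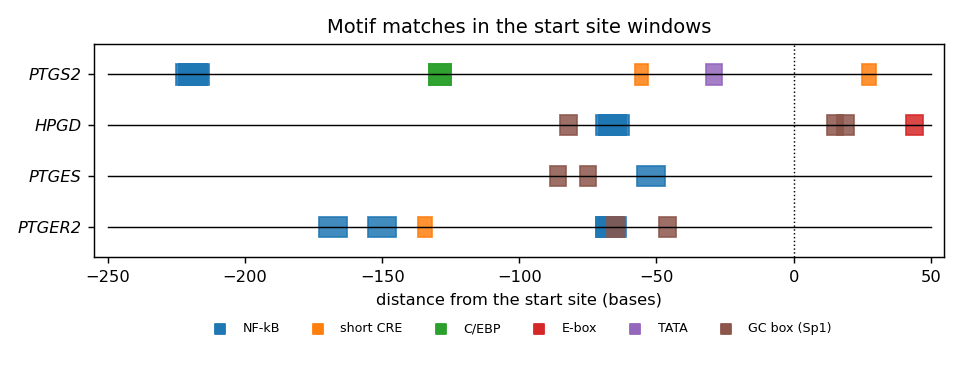
Positions of word matches, on either strand, from 250 bases before to 50 bases after the start site (dotted line) for the 4 genes that moved. Among these 4, the TATA and C/EBP words lie in the window of PTGS2, the short CRE word in those of PTGS2 and PTGER2, and GC box words (Sp1) in those of HPGD, PTGES and PTGER2.

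At the other end of the transcript, PTGS2 mRNA is known for AU-rich words that bind proteins controlling its decay. The longest 3′ UTR of PTGS2 in GENCODE 29 has 2565 bases and 22 ATTTA words, or 8.58 per kilobase. UTR lengths and positions here count the stop codon as part of the UTR. As many were found in 3.01% of 12257 tested genes with an annotated 3′ UTR, whose median density was 1.56 per kilobase. The densest 30-base stretch of PTGS2, at bases 2 to 31 of the UTR so counted, begins within the stop codon. It is shown because its 3 words overlap, with ATTTA in capitals.
PTGS2 AU-rich stretch: agaagtctaatgatcatATTTATTTATTTA

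PTGS2, the gene that rose, held these words at a higher density than the 3 genes that fell, and genes that did not pass lay from 0 to 8.40 per kilobase. PLA2G4A, with 4 words in 476 bases (8.40 per kilobase), PTGER4, with 9 (6.62), and PTGR1, with 8 (3.87), did not pass the test, PTGER2 fell with 5 (4.33) and HPGD fell with 5 (2.62). PTGES fell with 1 (0.779), and PTGES2, which did not pass, had none.

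The wider pathway was described with lists of genes by role, and counts are of genes past the same test over all genes. Each list count is a description, to be read beside the share over all 14653 genes tested, where 17.7% rose and 17.8% fell. Of 14 genes of arachidonate release, 7 were tested, 1 rose and 2 fell, with a median log2 fold change of −0.04. ANXA1, annexin A1, which is known to restrain phospholipase activity, rose 6.92-fold (adjusted p = 4.70e-09 from edgeR), to 114 ± 16.8 CPM from 16.5 ± 2.16 CPM (SD, n = 3 each). The phospholipases PLA2G4C and PLA2G12A fell to 34.4% and 66.9%, the latter not past the test without siCTRL replicate 3 (adjusted p = 0.084) or without siMic60 replicate 1 (adjusted p = 0.0831). In either case 1 gene of the list fell. Without siCTRL replicate 1, with a replicate block or with no count minimum, 2 rose.

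Of 11 terminal prostanoid synthases, 8 were tested, 3 fell and 0 rose by edgeR (0 also at an unadjusted p under 0.05, with DESeq2 and with limma), and their median log2 fold change was −0.28. Besides PTGES, thromboxane synthase TBXAS1 fell to 29.3 ± 0.865 from 63.6 ± 18.7 CPM (SD, n = 3 each; adjusted p = 1.84e-04). AKR1C3, which makes prostaglandin F2α and has near-identical relatives whose reads it can share, fell to 58.1%, and did not pass without siCTRL replicate 1 (adjusted p = 0.0923) or siMic60 replicate 2 (adjusted p = 0.0705). PTGES3, the abundant cytosolic synthase and HSP90 cochaperone, was at 356 ± 13.7 and 379 ± 28.8 CPM (SD, n = 3 each) and did not pass (fold 1.06, adjusted p = 0.565). HPGDS, the mast cell type of prostaglandin D synthase, had no count.

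Of the 9 prostanoid receptors, 5 were tested, 2 fell and 0 rose by edgeR (1, PTGFR, at an unadjusted p under 0.05, 0 with DESeq2 or limma after adjustment), with a median log2 fold change of 0.09. PTGER1, the EP1 receptor, fell beside PTGER2, from 6.82 ± 1.25 to 3.04 ± 1.08 CPM (SD, n = 3 each; adjusted p = 0.00755). PTGDR and PTGDR2 had no count. Without siMic60 replicate 1, 1 receptor rose.

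**Figure D5:**
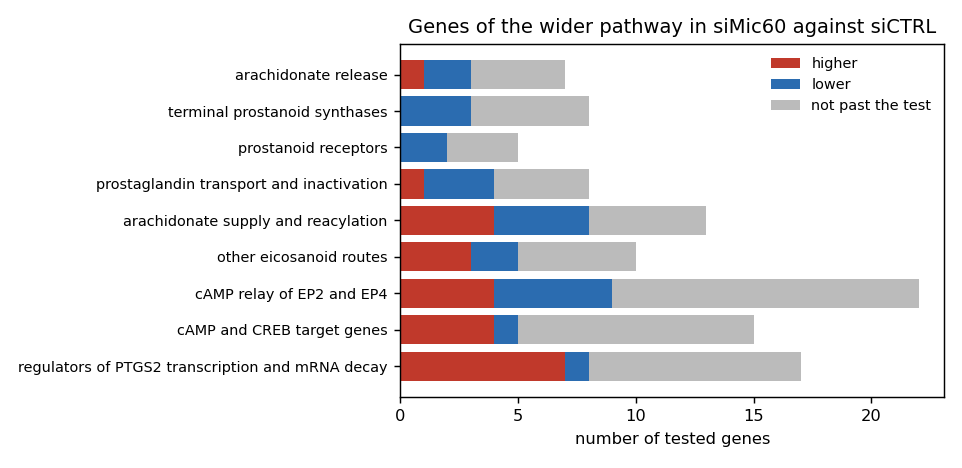
Number of tested genes in each of 9 lists around prostaglandin synthesis and signalling that rose (red), fell (blue) or did not pass the test (grey) after Mic60 silencing, n = 3 libraries a group. Terminal synthases and receptors hold 3 and 2 genes that fell, and the regulators of PTGS2 hold 7 that rose and 1 that fell. Over all 14653 genes tested, 17.7% rose and 17.8% fell.

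Of 9 genes listed under prostaglandin transport and inactivation, 8 were tested, 1 rose and 3 fell, with a median log2 fold change of −0.20. With HPGD, the efflux pump ABCC4, which exports prostaglandins and other anions, fell from 36.5 ± 1.60 to 16.8 ± 1.02 CPM (SD, n = 3 each; adjusted p = 2.15e-05), and the reductase PTGR3 fell to 69.3% (adjusted p = 0.00765). The 1 gene of the list that rose was PTGFRN (2.02-fold), a membrane protein named for binding to the prostaglandin F2α receptor. PTGFRN is not itself a transporter or an inactivating enzyme. SLCO2A1, the prostaglandin uptake transporter, had 1 count in each group.

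Genes that fill and empty the arachidonate pool moved in both directions. Of 14 listed, 13 were tested, 4 rose and 4 fell, with a median log2 fold change of −0.04. LPCAT3, which places arachidonate into phospholipids, rose 2.66-fold from 17.7 ± 1.35 CPM (SD, n = 3). ACSL3, an acyl-CoA synthetase, fell to 43.2%, from 521 ± 20.3 to 225 ± 7.07 CPM (SD, n = 3 each), and FADS1, the desaturase that makes arachidonic acid, fell to 50.5%. MGLL, the lipase that frees arachidonate from its glyceride, fell to 58.7%. LPCAT3, ACSL3, FADS1 and MGLL each had an adjusted p of at most 2.19e-04 from edgeR. The remaining genes that rose were ELOVL2 (2.55-fold) and 2 more acyl-CoA synthetases, ACSL1 (2.35-fold) and ACSL4 (1.92-fold). FADS2 fell to 64.6%.

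Of 20 genes of other eicosanoid routes, 10 were tested, 3 rose and 2 fell, with a median log2 fold change of 0.19. The cytochrome P450 gene CYP1B1 rose 3.04-fold to 81.0 ± 7.07 CPM (SD, n = 3), and CYP2J2, an arachidonate epoxygenase, rose from 0.368 to 2.40 CPM, a change resting on 9 counts in all with siCTRL and 55 with siMic60. CYP2J2 met the count minimum through the siMic60 libraries alone, and was not tested with any of these left out. MGST3 fell to 69.1%. The epoxide hydrolase EPHX1 rose 1.48-fold, but not without siCTRL replicate 1, siCTRL replicate 2 or siMic60 replicate 1 (adjusted p = 0.065, 0.0636 and 0.0836 from edgeR). Without siMic60 replicate 1, 1 gene of the list rose and 1 fell, and 1 also fell without siCTRL replicate 2 or siMic60 replicate 3. The lipoxygenases ALOX5, ALOX12, ALOX15 and ALOX15B had no count, and ALOX12B had 9 in all with siCTRL and 0 with siMic60. The lipoxygenase gene ALOXE3 was detected, at a mean of 4.14 CPM with siCTRL and 5.05 CPM with siMic60. ALOXE3 did not pass (adjusted p = 0.619 from edgeR).

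Downstream of EP2 and EP4, 22 of 26 listed genes of the cAMP relay were tested, and 4 rose and 5 fell, with a median log2 fold change of −0.10. The regulatory subunit PRKAR2B of protein kinase A fell from 27, 27 and 23 counts in the siCTRL libraries to 3, 0 and 5 in the siMic60 libraries (adjusted p = 7.32e-04 from edgeR). It met the count minimum through the siCTRL libraries alone, so it had to be higher there to be tested, and it was not tested with an siCTRL library left out. The subunit PRKAR1A fell to 63.2%. RAPGEF3, a cAMP-activated exchange factor, fell to 43.4%, and the cyclase ADCY3 rose 1.74-fold. The number of relay genes that fell was 2 without siCTRL replicate 2 and 3 without siCTRL replicate 3 or siMic60 replicate 3. Of 18 genes listed as cAMP and CREB targets, 15 were tested, 4 rose and 1 fell. Their median log2 fold change was −0.08. The gene that fell was PDE4B, a phosphodiesterase, named after its value was seen. PDE4B is also among the relay genes that fell, so its fall is counted in both lists. CRTC1, a coactivator of CREB rather than a known target, is in both lists too. DUSP1, a MAP kinase phosphatase, rose 2.51-fold, INHBA, which encodes an activin subunit, 1.61-fold and the growth factor AREG 1.48-fold. NR4A1, an immediate early receptor gene, rose 1.99-fold, but not without siCTRL replicate 3 (adjusted p = 0.0666) or siMic60 replicate 2 (adjusted p = 0.0801). By edgeR, 3 genes fell without siCTRL replicate 1 and 0 without siCTRL replicate 2, siCTRL replicate 3, siMic60 replicate 1 or siMic60 replicate 3.

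Of 21 genes known to act on PTGS2 transcription or on the decay of its mRNA, 17 were tested, 7 rose and 1 fell. Their median log2 fold change was 0.39, and over all genes tested 17.7% rose and 17.8% fell. ZFP36L1 and ZFP36L2, which bind AU-rich words and promote decay, rose 2.14-fold and 2.12-fold. ATF4 rose 2.05-fold to 255 ± 36.9 CPM (SD, n = 3). The remaining genes that rose were CEBPD (1.79-fold), RELA (1.47-fold), KHSRP (1.37-fold) and NFKB1 (1.31-fold), named after their values were seen. The part of any of these genes in the rise of PTGS2 was not tested. NFATC2, a transcription factor, fell from 53.3 ± 4.60 to 9.74 ± 1.82 CPM (SD, n = 3 each; adjusted p = 3.17e-08 from edgeR). ELAVL1, which stabilises AU-rich mRNAs and was named after its value was seen, was at 123 ± 5.14 and 113 ± 9.87 CPM (SD, n = 3 each) and did not pass (adjusted p = 0.468).

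The genes whose values over the 6 libraries were closest to those of a member, by Euclidean distance between centred log2(CPM + 0.5) among 11235 others with a mean of at least 5 CPM, were found for the 3 members with the smallest adjusted p. For PTGS2 they were ZDHHC8 (distance 0.30), GALNT3 (0.33) and LMNB1 (0.33), where the median distance was 2.38. For HPGD they were EML6 (0.29), PRKCA (0.45) and TRIB2 (0.47), with a median of 2.52. For PTGER2 they were MORN2 (0.19), SUN2 (0.21) and PRELID2 (0.25), with a median of 1.34. All 9 differed between the groups in the direction of their member, which the distance itself favours.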

How the data were processed

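RNA from 6 PC3 samples was sequenced as QuantSeq 3′ tags. The authors deposited counts per Ensembl gene with no normalization; RSEM 1.2.3, DESeq2 and hg19 are listed in the submitters' processing notes, without settings. Gene names came from the reference tables supplied, for 52301 of 57736 rows. Counts of genes with at least 10 in at least 3 libraries were normalized by TMM and tested between siMic60 and siCTRL with the quasi-likelihood test of edgeR 4.0.16 in R 4.3.3, with Benjamini-Hochberg adjustment at 0.05. Standard errors and 95% intervals were derived from the fitted coefficient and its F statistic. DESeq2 1.42.0, limma 3.58.1, other scalings and count minimums, a replicate block and leaving out each library were alternatives. The fit was tested on simulated data. Named genes were the members, IMMT, up to 4 called genes of smallest adjusted p per list (in lists with fewer than 5 tested genes also those not called), and the 3 nearest profiles of 3 members. Any other gene named was chosen after its values were seen. The members and lists were chosen with earlier results of these data known. Totals of 6644495 to 8779877 counts limit genes near 1 CPM to a handful of counts, and floors of 3 counts cover counting error only. Promoters are from RefSeq GRCh38.p14 and 3′ UTRs from GENCODE 29, used for sequence and not for coordinates of the counts.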

Additional observations from a re-analysis of the deposited data

How the results depend on the processing

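Every alternative left PTGS2, HPGD and PTGER2 past the threshold, with log2 fold changes of 1.74 to 2.13 for PTGS2 and −1.16 to −0.79 for PTGER2. The number of the 9 genes that fell was 3, or 2 without siCTRL replicate 2 or siMic60 replicate 3, where PTGES did not pass. The number that rose was 1 throughout. Over all genes, 5202 changed, with 4960 by DESeq2, 5218 by limma and 4148 to 4634 with a library left out. With scaling by library totals, 2223 rose and 2999 fell, so that 42.6% of changed genes rose, against 49.8% with TMM. With a minimum of 50 counts, 1 gene of arachidonate release, 1 receptor, 2 genes of the cAMP relay and 0 CREB targets fell by edgeR, and with no minimum 2 CREB targets fell. The log2 fold change of IMMT ran from −3.76 to −3.49. Genes near no change turned sign. With scaling by library totals PTGR1 was at −0.01. With a library left out, PTGR1 ran from −0.04 (without siCTRL replicate 1) to 0.09, and was −0.01 without siMic60 replicate 2. PTGER4 ran from −0.01 (without siMic60 replicate 2) to 0.23, PLA2G4A from −0.02 (without siMic60 replicate 3) to 0.57, and the fibroblast marker COL3A1 from −0.51 (without siMic60 replicate 2) to 0.39, with −0.15 without siCTRL replicate 2. The cause was not tested. The PTGS2 to PTGS1 ratio in siCTRL cells was 30.8 to 47.8 with a library left out, and rests on 5 PTGS1 counts. Libraries of the same number did not deviate together (correlations of −0.102, −0.0311 and 0.0293). Whether they were handled together is not stated, and these correlations cannot settle it. With a replicate block 4765 genes changed, and 1 of the 9 genes rose and 3 fell.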
